A study of Homo sapiens with 4 samples.

Results

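The genes described here are 9 direct transcriptional targets of the tumour suppressor p53, namely CDKN1A, MDM2, GDF15, SESN1, SESN2, TP53INP1, BBC3, BTG2 and ZMAT3. They were taken by name, but with earlier results of these data known, and all 9 were found among the 13165 genes of the table. TPC1 cells, a long-established line from a human papillary thyroid carcinoma, were transduced with an empty retroviral vector (TPC1-Vector) or with the vector carrying full-length INAVA cDNA (TPC1-INAVA, labelled TPC1-C1orf106 after the older symbol of the gene). Both groups were selected with 0.5 μg/mL puromycin, and RNA was sequenced from 2 libraries of each. For each gene and group the authors deposited 1 value in FPKM (sequenced fragments corrected for transcript length and for library size) that combines these libraries. No spread between replicates could therefore be computed, no p-value is given, and a difference between separately selected stable lines and an effect of INAVA cannot be told apart.

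p53 is a transcription factor that is kept scarce by the ubiquitin ligase MDM2 and is stabilized when DNA is damaged, nucleotides run short or an oncogene is active. It binds a response element made of a pair of decamers and switches on genes that halt the cell cycle, repair DNA, adjust metabolism or kill the cell. MDM2 is itself a target, which closes a negative feedback loop, and p53 is controlled largely through protein stability and modification.

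The level of INAVA was 7.96 FPKM without and 123 FPKM with the INAVA construct, in the direction of the labels. Of the thyroid markers, the transcription factors PAX8 (60.1 and 55.7 FPKM) and FOXE1 (5.26 and 5.89 FPKM) were expressed, whereas TG, TSHR, SLC5A5 and NKX2-1 have no value here. Among the epithelial keratins, KRT8 was at 23.4 and 10.5 FPKM and KRT18 at 140 and 212 FPKM, but this pair shares 1 deposited position, so that reads may be split between them, and KRT7 was at 1.97 and 2.01 FPKM. The other epithelial markers listed, KRT19, EPCAM and CDH1, have no value here. Of 7 markers of leukocytes, endothelium and fibroblasts, only COL1A1 (0.937 and 0.571 FPKM) and LUM (0.383 and 0.225 FPKM) have a value. A gene entered the comparison when its groups averaged 0.5 FPKM or more (12305 genes, all 9 targets included). Differences are given as log2(FPKM + 0.5) in TPC1-INAVA minus that in TPC1-Vector, a scale that understates the change of weak genes, and a gene was called when the difference reached 1.5-fold (0.585 on the log2 scale). The median difference of all genes kept was 0.0033, and the central 90% lay between -0.381 and 0.403. Of all genes kept, 50.8% were higher in TPC1-INAVA.

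Response elements were looked for in the RefSeq promoter windows (GRCh38.p14, 250 bases before to 50 after each annotated start) of 8 of the 9 genes, all but TP53INP1. Runs of 20 bases that hold the C and G of both decamer cores and fit the p53 consensus at 16 or more places were counted. The consensus is its own reverse complement, so a single pass covers both strands. Such a run occurred in 4.05% of all windows (1343 of 27305 genes), and a run with 17 or more matching places in 1.12% (373 genes). Among these targets MDM2, GDF15, SESN1 and ZMAT3 had a run with 16 or more, and CDKN1A, SESN2, BBC3 and BTG2 had none within the window. Only decamers with no bases between them were searched. The absence of a run therefore does not speak to spaced decamers, to elements lacking a core letter or to elements farther away. The 4 runs are shown because they place the consensus beside the start of genes measured here, with the core C and G in capitals.

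MDM2: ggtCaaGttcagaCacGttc
GDF15: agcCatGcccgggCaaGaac
SESN1: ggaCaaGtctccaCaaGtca
ZMAT3: gggCctGctccgcCaaGcac

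The MDM2 run (chr12:68808923-68808942, forward strand) matched at 18 of 20 places and begins 94 bases before an internal start of the gene, in an intron of 7 of its 34 GENCODE release 29 transcripts and outside the other 27. In GDF15 the run (chr19:18386186-18386205, forward strand) matched at 17 places, begins 28 bases after the start and overlaps the coding part of an exon in 3 of 5 transcripts. A second run with 16 matches overlaps it. The SESN1 run (chr6:109009018-109009037, reverse strand) matched at 17 places, 49 bases before an internal start and in an intron of 2 of 7 transcripts. For ZMAT3 the run (chr3:179071873-179071892, reverse strand) matched at 16 places and lies in a noncoding part of an exon in 2 of 3 transcripts. A match is a description of the sequence, and binding of p53 was not measured.

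The targets as a group were higher in TPC1-INAVA. Of the 9 genes, 8 were higher and 6 reached 1.5-fold (CDKN1A, BTG2, TP53INP1, BBC3, MDM2 and SESN1), whereas 2.24% of all genes kept were called higher. None of the 9 was called lower, against 1.45% of all genes. The median difference of the targets was 0.68, and their levels summed to 194 FPKM in the vector cells and to 340 FPKM in TPC1-INAVA. Most of that gain was CDKN1A, since the other 8 summed to 122 and 168 FPKM. With a looser limit of 25% higher or 20% lower (0.322 on the log2 scale in either direction), 8 of 9 were higher and 0 lower, against 7.69% and 6.74% of all genes. All 9 averaged 5 FPKM or more, and among the 8584 genes at or above that level 1.29% were called higher. RNA of a whole culture was sequenced, so that more cells with a transcript and more of it per cell cannot be told apart.

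**Figure D1:**
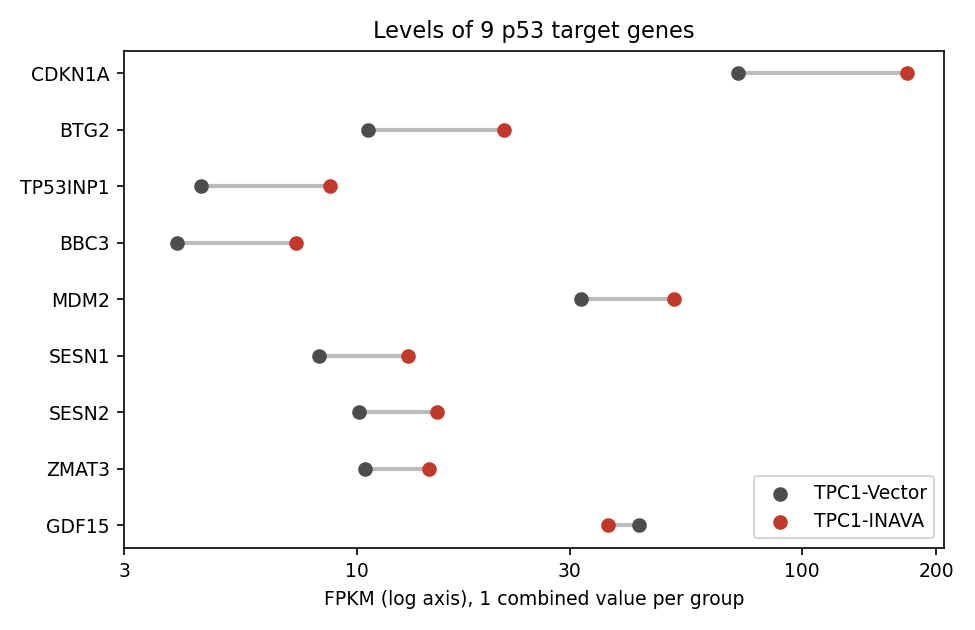
FPKM on a log axis of the 9 p53 target genes in TPC1-Vector (grey) and TPC1-INAVA (red), 1 combined value per group and therefore without error bars, ordered by difference. The TPC1-INAVA point lies to the right for 8 targets, from ZMAT3 (10.4 and 14.5 FPKM) to CDKN1A (71.8 and 172 FPKM), and to the left for GDF15.

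MDM2 (chr12:68808172-68845544), which marks p53 for degradation, was at 31.9 and 51.4 FPKM. The difference of 0.68 was reached by 190 of the 12305 genes (1.54%). Its relative MDM4, which binds p53 and blocks its activity, went the other way with 5.76 and 4.80 FPKM and a difference of -0.24, short of the call. FPKM is per length, so levels can be set against each other, and MDM2 stood at 5.54 times the MDM4 level in TPC1-Vector and at 10.7 times in TPC1-INAVA.

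Cell cycle inhibitors had the highest differences of the 9 genes. CDKN1A (chr6:36676460-36687339) encodes p21, the inhibitor of cyclin-dependent kinases through which p53 halts the cycle before DNA synthesis. It was at 71.8 FPKM in the vector cells, above 90.8% of the genes kept, and at 172 FPKM in TPC1-INAVA, above 96.6%. With a difference of 1.255 and a ratio of 2.40 between the FPKM values, only 41 genes of the table (0.333%), CDKN1A included, were as high. On the log2(FPKM + 0.5) scale it was the only one of the 9 past 2-fold, which 0.610% of all genes reached. BTG2 (chr1:203305536-203309601), an antiproliferative protein that promotes mRNA deadenylation, was at 10.6 and 21.4 FPKM, a ratio of 2.01 between the FPKM values. Its difference of 0.97 was reached by 80 genes (0.650%). The related inhibitors differed little or were lower. CDKN1B, which encodes p27, was at 24.6 and 24.0 FPKM, and CDKN1C, which encodes p57, was called lower at 3.09 and 1.65 FPKM with a difference of -0.74. CDKN1C is placed on an alternate contig in the table. BTG1, the closest relative of BTG2, was at 2.92 and 3.10 FPKM, a difference of 0.07.

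Both genes for cell death in the group were called higher from low levels. BBC3 (chr19:47220822-47232766) encodes PUMA, a BH3-only protein that sets off apoptosis at mitochondria. It was at 3.93 and 7.30 FPKM, a difference of 0.82 that 123 genes reached. TP53INP1 (chr8:94925972-94949387), a stress protein that promotes p53 phosphorylation and autophagy, was at 4.45 and 8.67 FPKM with a difference of 0.89, which 95 genes reached (0.772%). Even in TPC1-INAVA these levels lay above only 38.3% and 42.5% of the genes kept. TP53INP2, a relative that acts in autophagy, was at 1.64 and 2.28 FPKM, short of the call at 0.38.

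The sestrins and ZMAT3 differed less. SESN1 (chr6:108986437-109094505) and SESN2 (chr1:28259452-28282491) encode stress proteins that restrain mTORC1 signalling, SESN2 as a leucine sensor. SESN1 was at 8.20 and 13.0 FPKM, a difference of 0.63 that passed the 1.5-fold limit. SESN2 was at 10.1 and 15.1 FPKM, and its difference of 0.56 fell just short of it. The sestrins thus differed by a similar amount and lay on opposite sides of an arbitrary limit. ZMAT3 (chr3:179017225-179071868), a zinc finger protein that binds RNA and regulates splicing, was at 10.4 and 14.5 FPKM with a difference of 0.47, which 3.70% of the genes reached.

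GDF15 was the exception. This secreted stress cytokine of the TGF-β superfamily (chr19:18386158-18389176) was at 42.9 FPKM in the vector cells and 36.7 FPKM in TPC1-INAVA. The difference of -0.22 lay within the central 90% of all genes, and 12.4% of genes were as low or lower. GDF15 and SESN2 are also induced by ATF4, the transcription factor of the integrated stress response. All 7 genes of a list of ATF4 and its targets were lower in TPC1-INAVA, with a median of -0.36 against 0.0033 over all genes. Of these, the cystine transporter SLC7A11 (14.2 and 9.05 FPKM, difference -0.62) and the asparagine synthetase ASNS (36.3 and 23.9 FPKM, -0.59) were called lower. Over all genes 1.45% were called lower. ATF4 itself was nearest to level at 352 and 330 FPKM. The list is not complete, and ATF3 (0.46), PPP1R15A (0.434) and ATF5 (0.173), which ATF4 can also induce, were higher. SESN2 was higher and GDF15 lower beside the shift of the listed genes, and whether that shift bears on either gene was not tested.

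**Figure D2:**
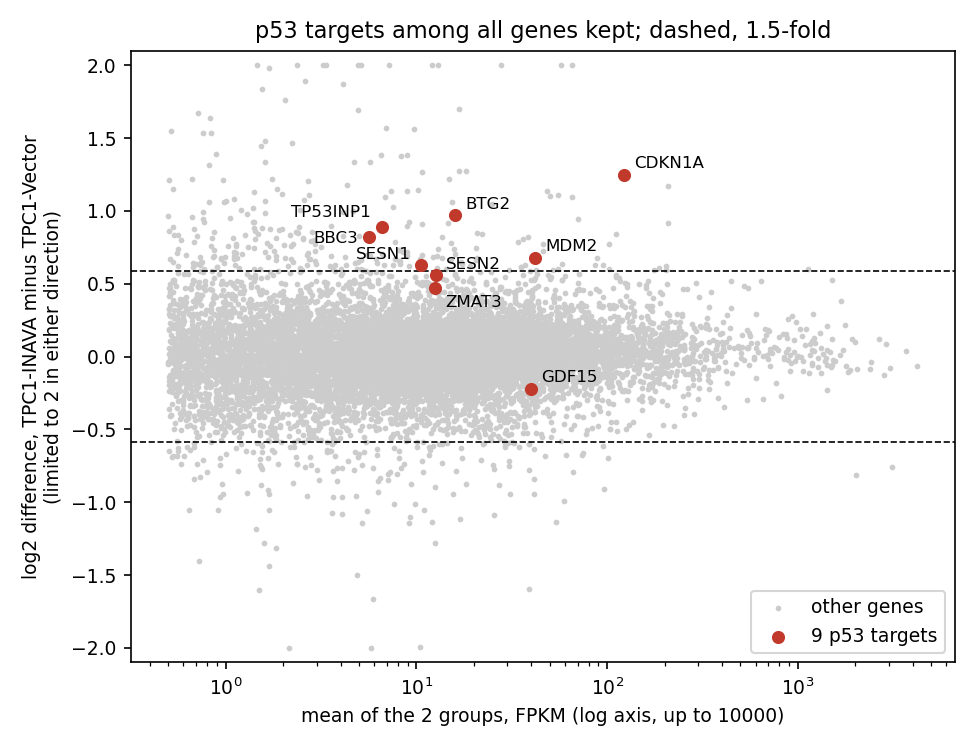
Difference between the groups (log2, TPC1-INAVA minus TPC1-Vector, limited to 2) against mean FPKM on a log axis for the genes kept up to 10000 FPKM (grey) and the 9 targets (red), with the 1.5-fold limits dashed. The 6 targets called lie above the upper limit, CDKN1A the farthest right and the highest of them.

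The other genes of the pathway were compared through lists sorted by role. Of 47 further p53 targets, 43 have a value and 42 were kept. Among them 38 were higher and 4 lower, with a median of 0.33, 7 were called higher (16.7%, against 2.24% over all genes) and 0 lower. TRIM22 passed the filter on low values only through TPC1-INAVA, where it was high, and without it 6 of 41 were called (14.6%). With the looser limit, 22 were higher and 0 lower, against 7.69% and 6.74% of all genes. The 7 called were GADD45A, PLK3, PHLDA3, FDXR, TRIM22, EDA2R and CYFIP2. These lists were drawn up with the direction of the 9 genes known, and the counts describe the same libraries.

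Of the 6 arrest genes kept, 4 were higher and 2 were called. GADD45A, a sensor of genotoxic stress, was at 24.8 and 43.3 FPKM with a difference of 0.79. PLK3, a stress-responsive kinase, was at 4.72 and 7.64 FPKM (0.64) and shares its deposited position with another gene. PLK2 had the lowest value of the list, at 284 and 279 FPKM (-0.03). SFN, which encodes 14-3-3σ, was too weak to be kept at 0.336 and 0.556 FPKM.

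Of 11 apoptosis genes, 10 were higher but only PHLDA3, a repressor of AKT, was called (28.9 and 44.9 FPKM, 0.63). The median of this list was 0.17, the lowest among the target lists. PMAIP1, which encodes NOXA, was at 51.6 and 57.9 FPKM, and the death receptor TNFRSF10B at 82.6 and 93.1 FPKM. BAX, the pore-forming effector of mitochondrial apoptosis, was at 118 and 149 FPKM (0.34). APAF1, the scaffold of the apoptosome, was the lowest at 7.69 and 7.24 FPKM (-0.08).

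All 4 repair genes were higher and none was called, with a median of 0.43. DDB2, which recognizes damage by ultraviolet light, came closest at 19.6 and 29.6 FPKM (0.58), and POLH, a translesion polymerase, was lowest at 9.87 and 11.8 FPKM (0.25). The 7 metabolic and autophagy genes kept were also all higher, with a median of 0.33. FDXR, the mitochondrial ferredoxin reductase, was called at 13.2 and 21.0 FPKM (0.65), and SCO2, an assembly factor of cytochrome c oxidase, was lowest at 30.2 and 32.1 FPKM (0.09). Of the 14 other targets kept, 13 were higher and 3 were called, with a median of 0.41. EDA2R, a receptor of the TNF receptor family, was at 4.93 and 8.34 FPKM (0.70), and CYFIP2, a subunit of the WAVE actin-regulatory complex, at 7.94 and 13.0 FPKM (0.67). TRIM22, an antiviral ubiquitin ligase, was at 0.147 and 1.37 FPKM (1.53), a value that rests on a level close to 0 in TPC1-Vector. TP53I11 was the lowest at 5.55 and 4.82 FPKM (-0.19).

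RefSeq promoter windows were matched for 41 of the 47 further targets, and 4 of these genes had a consensus run with 18 or more matches, DDB2, AEN and FAS among them. Over all genes with a window, 98 of 27305 had such a run. Windows were matched for 4 of the 7 called genes, and FDXR was the only one of these with a run of 16 or more matches. These are shown for comparison with those of the 9 genes.

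DDB2: aagCtgGtttgaaCaaGccc
AEN: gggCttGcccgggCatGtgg
FAS: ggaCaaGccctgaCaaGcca
FDXR: gggCagGagcgggCttGccc

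The DDB2 run (chr11:47214969-47214988) matched at 19 of 20 places, those of AEN (chr15:88621306-88621325) and FAS (chr10:88991309-88991328) at 18 and that of FDXR (chr17:74872996-74873015, reverse strand) at 17. All 4 begin before the RefSeq start, between 5 bases (DDB2) and 122 bases (FAS). AEN, a p53-induced exonuclease, was at 35.9 and 50.4 FPKM (0.48), and the death receptor FAS at 22.1 and 24.7 FPKM (0.16).

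Regulators of p53 were listed apart from its targets. Of 16 genes kept, among them the kinases ATM, ATR, CHEK1 and CHEK2 and the coactivators EP300 and CREBBP, 4 were higher and 12 lower, and the median was -0.025. None was called in either direction, which says little in a list this short, since 2.24% and 1.45% of all genes were called. The highest was PPM1D, a phosphatase that dampens p53 signalling and is itself a p53 target, at 5.52 and 7.38 FPKM (0.39). MDM4 was the lowest at -0.24. CDKN2A, whose ARF product inhibits MDM2, was at 182 and 168 FPKM and shares its deposited position with another gene. Among 13 cell cycle genes that p53 represses indirectly through p21, 10 were lower and 3 higher, with a median of -0.072, and again none was called. CDC25C, a phosphatase that opens mitosis, was the lowest at 9.48 and 7.82 FPKM (-0.26). MYBL2 was the highest at 79.7 and 101 FPKM (0.34), level with the median of 0.33 of its 48 neighbours within 5 Mb. CDK1, among the lower genes at 140 and 124 FPKM (-0.17), was likewise close to its 15 neighbours, whose median was -0.2.

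**Figure D3:**
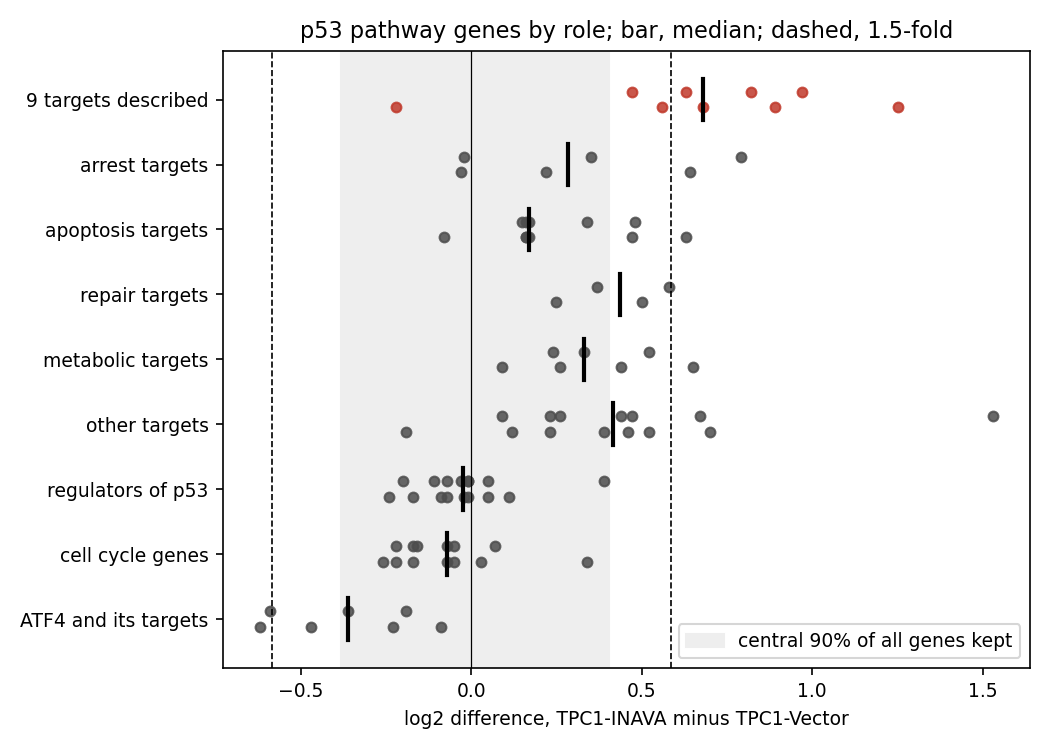
Difference between the groups (log2) for each gene kept of the p53 lists, 1 point per gene and 1 row per role, with the median as a bar, the central 90% of all genes shaded and the 1.5-fold limits dashed. The 9 targets have a median of 0.68 and the 5 further target lists medians from 0.17 to 0.43, while the regulators (-0.025) and cell cycle genes (-0.072) centre near 0 and the ATF4 genes lie at -0.36.

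Genes along some stretches of chromosomes differed together between these groups, so each target was also set against the genes within 5 Mb on either side that averaged 1 FPKM or more. Around 8 of the 9 genes the median of the neighbours lay between -0.042 (SESN1) and 0.078 (BBC3). None of the neighbours of CDKN1A (44 genes), MDM2 (37), SESN1 (37) or TP53INP1 (40) had a difference as high as the target itself. For SESN2 2 of 118 neighbours did, and for BBC3 1 of 152. GDF15 lay below the median of its neighbours (0.048), and 99 of those 102 genes were as high as GDF15 or higher. BTG2 lies 2.40 Mb from INAVA, which was the only 1 of its 61 neighbours with a higher difference. ZMAT3 was set apart, since all 22 of its neighbours were lower in TPC1-INAVA, with a median of -0.35. Its difference of 0.47 exceeded that median by 0.82, more than the 0.65 of MDM2 and close to the 0.83 of TP53INP1. FAS was in a similar position, with 36 of 38 neighbours lower, a median of -0.36 and a difference 0.52 above it. For FAM210B the neighbours had a median of 0.41, and its own difference of 0.44 (6.22 and 8.62 FPKM) exceeded it by only 0.04. Of the 42 further targets, 40 lay above the median of their neighbours, with a median excess of 0.28.

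**Figure D4:**
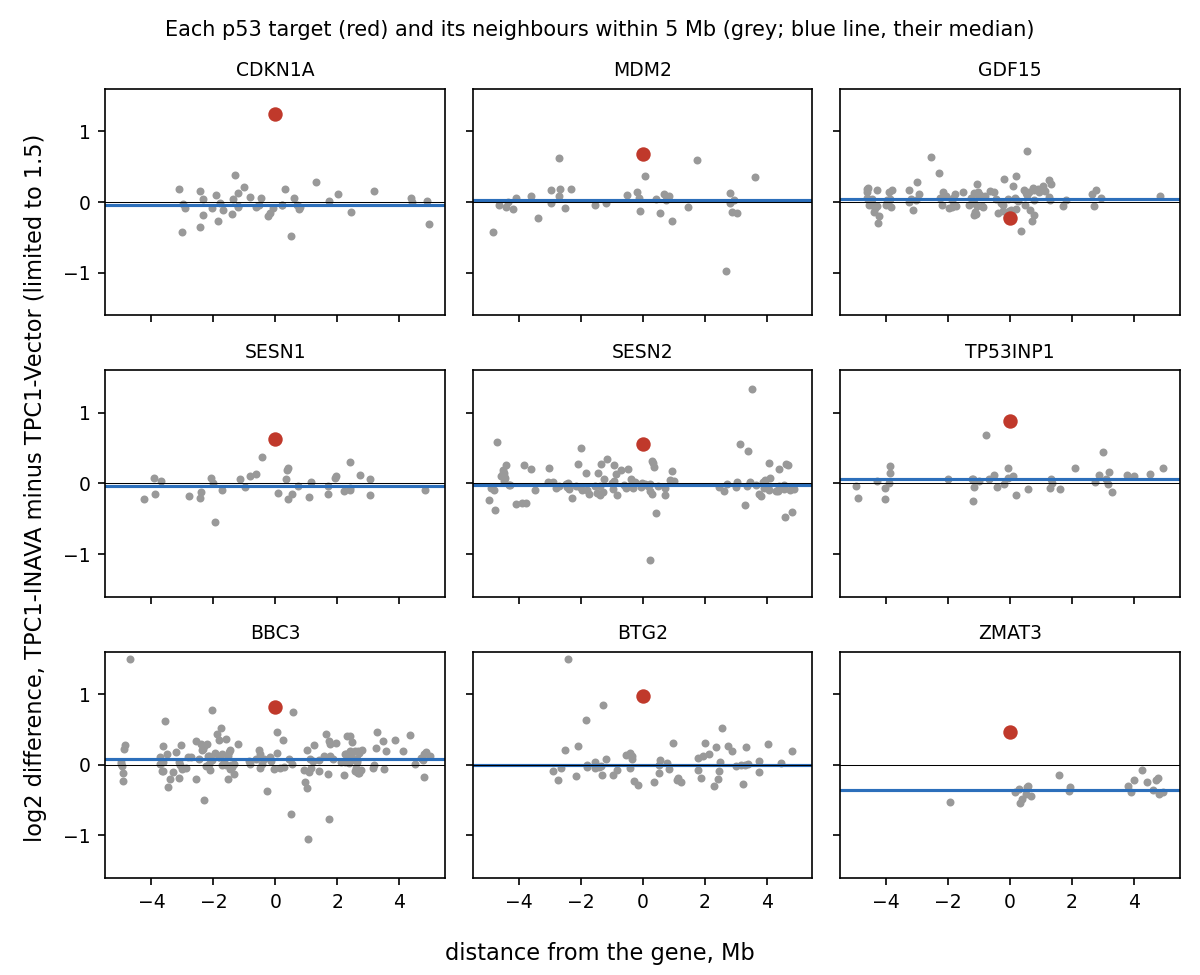
Difference between the groups (log2, limited to 1.5) for each of the 9 targets (red) and the genes within 5 Mb (grey), against distance in Mb, with the median of the neighbours as a blue line. The neighbours of ZMAT3 all lie below 0, around -0.35, with ZMAT3 above them at 0.47, and for CDKN1A, MDM2, SESN1 and TP53INP1 the red point is the highest in the panel.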

How the data were processed

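The authors deposited FPKM values, 1 for each of 13165 genes and group, made from 2 libraries per group. The submitters' processing notes name CASAVA, Cufflinks 2.1.1, Cuffdiff and hg38, and the aligner and annotation are not given in the sources used here. The deposited table also holds the authors' own log2 ratios, directions, p-values and q-values, which were not used. Each FPKM value combines 2 libraries, so whole reads were not recovered, and depth and counting error are unknown. No test across genes was run, since 1 value per group gives no spread.

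Genes whose groups averaged 0.5 FPKM or more were kept, differences were taken of log2(FPKM + 0.5), and genes past 1.5-fold were called. Starts were shifted from 0-based to 1-based, and GENCODE release 29 gave transcripts. Of the 13165 genes, 2612 share their deposited position with another gene. Beside those marked above, these include PAX8, FAS, TNFRSF10B, APAF1, POLH, SCO2, TP53I11 and CDC25C. The calling and motif steps were tested on simulated data. The members and lists were chosen with earlier results of these data known, and the cutoffs of the motif search were chosen after its first results were seen. Named are the 9 targets, INAVA, MDM4 and, in each list, the called, highest and lowest genes, with examples chosen after their values were seen. Lists covered regulators, target classes, relatives, ATF4 genes, cell cycle genes and cell type markers. Alternatives were pseudocounts of 0.1 and 1, other filters, scalings and fold limits. Some items are not reported here. Python 3.11.15, numpy 2.4.6, pandas 2.3.3 and matplotlib 3.10.9 were used.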

Additional observations from a re-analysis of the deposited data

How the results depend on the processing

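No paired analysis was possible because the table holds 1 value per gene and group, and for the same reason no replicate could be left out. Under pseudocounts of 0.1 and 1, no filter, a filter at 1 FPKM, median-of-ratios scaling, quantile normalization and, chosen after seeing the data, no pseudocount and a filter at 5 FPKM, each of the 9 targets kept its direction and its side of the 1.5-fold limit in all 8 settings. CDKN1A ranged from 1.21 to 1.26, SESN2 from 0.54 to 0.58 and GDF15 from -0.25 to -0.22. The number of targets called higher stayed at 6, and that of the further targets ranged from 6 to 9. At 2-fold with 0.5 added it was 1 of the 9 and 1 of the further targets (TRIM22), with no pseudocount, also chosen after seeing the data, 2 of the 9 (CDKN1A and BTG2) and 1 of the further targets, and at 25% higher 22 of the further targets, because the limit itself moves. The unknown depth leaves the error of weak genes such as TRIM22 unstated.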

Other observations

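Genes with a p53 consensus run near their start were looked at, which was decided with the data in view. Of the genes kept that have a RefSeq promoter window, 8672 had no run with 16 or more matches, and their median difference was -0.000166 with 1.68% called higher. The 32 genes with 18 or more matches had a median of 0.105, and 2 were called (MDM2 and ACTA2). Of these 32 genes 22 were higher, beside 50.8% of all genes kept. ACTA2, the smooth muscle actin, was at 5.18 and 8.28 FPKM, GPX1, a glutathione peroxidase, at 298 and 406 FPKM and PTCHD4, a Patched-related protein, at 5.82 and 7.93 FPKM. MDM2, DDB2, AEN and FAS are among these 32 genes, so the values are not independent of those above. The 28 genes that are in none of the lists had a median of 0.069, with 18 higher and 1 called (ACTA2). Absence from these lists does not mean that a gene is not a p53 target. FAS shares its deposited position (chr10:88932684-89015785) with another gene. Whether the ACTA2 run is separate from that of FAS was not checked, so the same run may be counted for both genes. Of the 28 genes, S100A6 and VDAC2 with 18 matches each were lower at 287 and 241 FPKM and at 185 and 151 FPKM.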
